A study of Mus musculus with 12 samples.

Results

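Translation initiation and elongation factors were examined as a gene family in the tibialis anterior of Smyd1 CKO mice. The family was taken by name, as every gene whose symbol begins with Eif1 to Eif6, Eef1 or Eef2, which gave 63 of the 23923 genes. Each of 12 mice, sampled at 6 weeks of age, gave 1 RNA sequencing library, and the groups held 6 animals each. Controls were Myf6 cre/+; Smyd1 flox/+ and CKOs were Myf6 cre/+; Smyd1 flox/-, so all 12 carried the Cre allele and at least 1 floxed Smyd1 allele, on a mixed C57BL6/J and 129S1/SvImJ strain. Myf6-cre is a knock-in that drives Cre in myofibers, and per the study's methods all mice also carried a Rosa26 YFP reporter allele. Other cells of the muscle keep Smyd1 as inherited, which in CKOs includes a null allele. Smyd1 encodes a muscle lysine methyltransferase, and the comparison asks what its loss from myofibers does to gene expression in a fast muscle.

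Eukaryotic translation starts when initiation factors (eIFs) bring the ribosome's small subunit and the initiator tRNA to the capped end of an mRNA and move it to the start codon. Elongation factors (eEFs) then deliver each aminoacyl-tRNA and move the ribosome along the message. Skeletal muscle is known for an exchange of its tRNA-delivering factor after birth, when myofibers replace eEF1A1 with its close relative eEF1A2, while most other cell types go on using eEF1A1.

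Values are FPKM, fragments per kilobase of transcript scaled to the mapped fragments of the library, so levels of different genes can be set side by side. Fold changes are CKO minus control on the log2(FPKM + 0.1) scale, tested with limma across 12695 genes that reached 0.1 FPKM in at least 6 of the 12 libraries, with Benjamini-Hochberg adjustment over all of them. The fast fiber markers summed to 18600 to 30264 FPKM over all mice, as the labelled fast muscle would have. Libraries were unequal. The median log2 fold change of all tested genes was 0.18, and the same FPKM after median-ratio scaling, which divides each library by its typical ratio to the others, gave 0.01. Changes are therefore read against that shift, and scaled values are given beside the deposited ones. Control 1 stood apart, since it held the highest control value for 40 of the 62 family members that passed the filter, and its summed fibroblast markers were 827 FPKM against 220 to 277 in the other controls. The median correlation of control 1 with its group was 0.947, that of CKO 5 was 0.946, and those of the other 10 libraries lay between 0.957 and 0.969. Smyd1 itself ran from 32.9 to 47.1 FPKM in controls and from 27.8 to 39.9 FPKM in CKOs. A value over the whole gene does not separate the deleted exons, so this does not check the labels.

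No member of the family passed an adjusted P of 0.05 in either direction, whereas 2.02% of all tested genes were called higher and 0.268% lower. At an unadjusted P of 0.05, 11 of 62 members were higher in CKOs (17.7%, against 18.1% of all tested genes) and 1 was lower (1.61%, against 1.76%). The family's median log2 fold change was 0.15 and 51 of 62 members had a positive value, 82.3% against 77.9% of all genes. The shares of the family past the threshold were thus near those of the whole table. After median-ratio scaling 0 members were higher and 1 was lower at an adjusted P of 0.05, against 0.764% and 0.709% of all genes. At an unadjusted P, 2 were higher and 6 lower after scaling, against 6.62% and 7.44% of all genes. In no member did all 6 CKO values lie above, or all 6 below, the 6 control values, which happened upwards in 2.23% and downwards in 0.189% of genes.

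Control 1 decided how many members were called. Without it, 6 members were higher at an adjusted P of 0.05 by limma: Eef1a1, Eef1b2, Eif3d, Eif3g, Eif3l and Eif3m. In the same fit 1075 of 12560 genes were called higher (8.56%), and 27.2% were higher at an unadjusted P, so calls of members rose along with those of the whole table. With control 1 left out and median-ratio scaling together, Eef1a1 and Eif3l were higher and Eif2d and Eif2s2 were lower at an adjusted P of 0.05, against 1.43% of all genes higher and 1.45% lower. That fit with scaling was added after the values were seen. Control 1 was itself singled out from its values in this family, so calls without it are descriptive.

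The elongation factor that delivers aminoacyl-tRNA is encoded by Eef1a1, the form of most cells, and Eef1a2, the muscle and neuron form. The starts of the coding sequences are shown because the messages encode nearly the same protein and a reader may ask whether their reads can be told apart. The lines give the first 60 coding bases in GRCm38, read on the minus strand from chr9:78480595-78480654 for Eef1a1 and chr2:181155347-181155406 for Eef1a2, with capitals at bases that differ.
Eef1a1: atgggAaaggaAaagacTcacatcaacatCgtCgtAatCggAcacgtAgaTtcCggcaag
Eef1a2: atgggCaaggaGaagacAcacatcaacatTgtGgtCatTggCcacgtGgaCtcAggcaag
All 11 differences in these 60 bases fell at the third position of a codon. Over 1389 aligned coding bases 80.1% were identical, and the transcripts of the pair shared no stretch of 50 bases, so a read of that length does not map equally well to both. Eef1a1 has another source of ambiguity. In the GENCODE annotation its transcripts shared 50-base stretches with 19 other genes, 18 of them pseudogenes, while those of Eef1a2 shared none. Reads that mapped to several places were discarded by the authors, so the Eef1a1 level may be understated in every library.

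Eef1a2 was the most abundant member, at a mean of 123 FPKM over the 12 mice. Its values ran from 94.2 through a median of 123 to 143 FPKM in controls and from 107 through 129 to 141 FPKM in CKOs. The groups overlapped almost entirely. The log2 fold change was 0.06 (SE 0.115, limma adjusted P = 0.805), with a 95% interval from -0.19 to 0.30, and it was -0.13 after median-ratio scaling. Without control 1 and with scaling it was -0.25 (limma unadjusted P = 0.0259, adjusted P = 0.207).

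Eef1a1 was the lower of the pair in every library. Its values ran from 13.5 through a median of 15.5 to 37.3 FPKM in controls and from 17.2 through 28.2 to 33.4 FPKM in CKOs. The highest of all 12 values was control 1. The other 5 controls lay between 13.5 and 16.4 FPKM, below all 6 CKOs, of which CKO 5 at 17.2 FPKM was the closest. The log2 fold change was 0.61 (SE 0.224, limma unadjusted P = 0.0158, adjusted P = 0.155) over all 12 mice. It was 0.42 after scaling (adjusted P = 0.343), 0.83 without control 1 (adjusted P = 0.00516), and 0.59 without control 1 and with scaling (adjusted P = 0.0402).

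**Figure D1:**
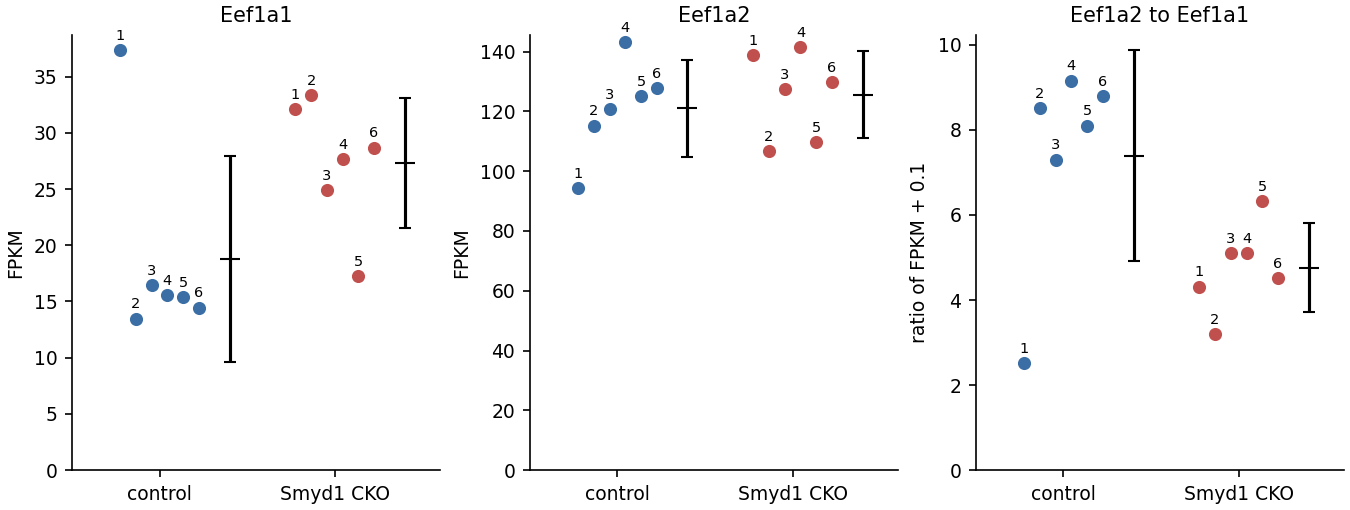
FPKM of Eef1a1 and of Eef1a2, and the ratio of Eef1a2 to Eef1a1, with 1 numbered point per mouse for controls (blue) and Smyd1 CKOs (red) and a black bar at each group's mean ± SD (n = 6). Control 1 holds the highest Eef1a1 value (37.3 FPKM) and the lowest ratio (2.52), while Eef1a2 overlaps between the groups.

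The ratio of Eef1a2 to Eef1a1 within a library does not depend on how libraries are scaled. It was 2.52 in control 1 and 7.30 to 9.16 in the other 5 controls, against 3.19 to 6.33 in CKOs with a median of 4.81. Leaving control 1 aside, every control had a higher ratio than every CKO. Over all 12 mice controls had a mean log2 ratio of 2.77 ± 0.71 and CKOs one of 2.22 ± 0.33 (SD, n = 6 each). The difference of -0.55 did not pass a two-sided exact permutation test (P = 0.110, 0.710 adjusted over 8 pairs of related genes). Without control 1 it was -0.84 (exact permutation P = 0.00433, adjusted 0.0346, with 0.00216 the smallest P that design allows). Control 1 was singled out by values that include this ratio, so leaving it out favours a difference. The P without it is therefore a description and does not replace the test over all 12 mice.

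A marker list of 6 fibroblast genes (Col1a1, Col1a2, Col3a1, Pdgfra, Dcn, Lum) moved with Eef1a1. The summed list was 827 FPKM in control 1, 220 to 277 FPKM in the other controls and 292 to 490 FPKM in CKOs. It thus ordered the mice much as Eef1a1 did. Across the 12 mice log2 Eef1a1 and the log2 sum had Pearson's r = 0.884 and Spearman's rho = 0.993 (permutation P = 2e-05 each, the smallest these permutations can give, and 8e-05 adjusted over 4 relations). Without the 2 libraries farthest from the median sum, control 1 and CKO 1, r was 0.921. Within the 6 controls r was 0.999 and rho 1 (exact permutation P = 0.00278 each, adjusted 0.00556). Within the 6 CKOs r was 0.805 (exact permutation P = 0.00833) and rho 0.943 (P = 0.0167), adjusted 0.0167 and 0.0333. The relation held within both groups, and it was examined after the values had been seen. Of 9 marker lists only the fibroblast and slow fiber sums were related to Eef1a1, and the adjustment does not cover that choice. The fast fiber, macrophage, adipocyte and erythroid sums were also highest in control 1, and their relations with Eef1a1 were not computed. Eef1a1 and the fibroblast sum share each library.

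Without control 1, 5 of the 6 fibroblast genes passed an unadjusted P of 0.05, all higher, and 4 passed the adjusted test, against 27.2% and 8.56% of all genes in that fit, while with all 12 mice 2 and 0 did. In a whole muscle, a change in the number of cells of a type and a change in RNA per cell cannot be told apart. What part fibroblast RNA has in the Eef1a1 values was not tested. The 6 slow fiber markers summed to 8.62 to 29.8 FPKM in controls and 14.5 to 266 FPKM in CKOs. CKO 2, CKO 4 and CKO 5 lay within the control range, and CKO 1, CKO 3 and CKO 6 above it. All 6 genes were higher at an unadjusted P, against 18.1% of all genes, and 0 passed the adjusted test. After scaling 5 of these genes were higher at an unadjusted P, against 6.62%. Over 12 mice their sum had r = 0.536 with Eef1a1 (permutation P = 0.0795, adjusted 0.0795) and rho = 0.601 (permutation P = 0.0425, adjusted 0.0425). Without the 2 farthest libraries, CKO 1 and CKO 6, r was 0.406 (permutation P = 0.283), and it was 0.392 within controls and 0.350 within CKOs (exact permutation P = 0.519 and 0.553).

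**Figure D2:**
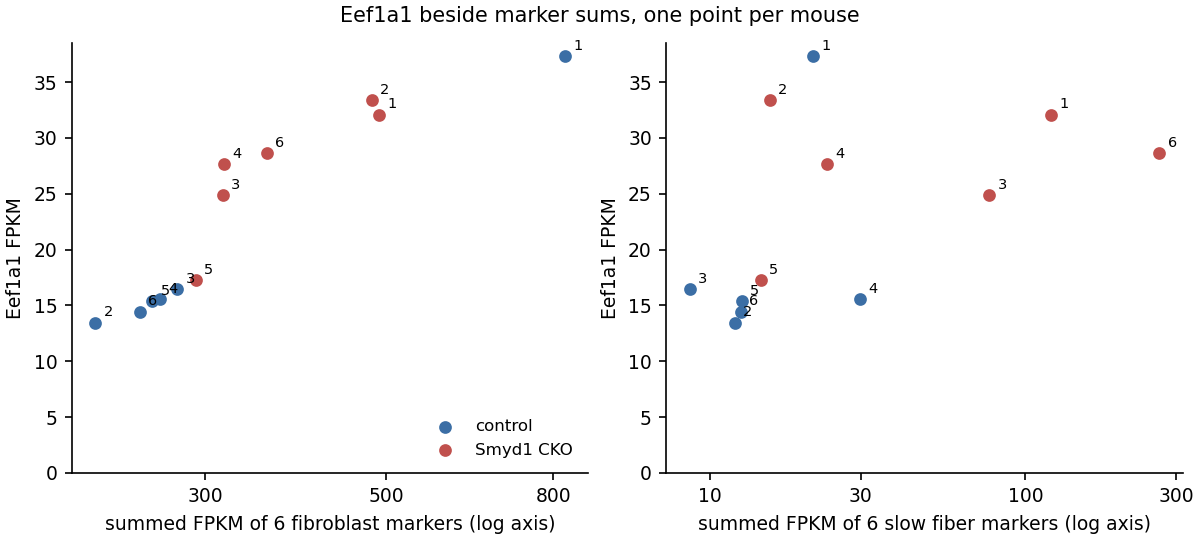
Eef1a1 FPKM of each mouse against the summed FPKM of 6 fibroblast markers (left) and of 6 slow fiber markers (right), both on log axes, with controls in blue, Smyd1 CKOs in red and mice numbered within their group. On the left the points climb together from 13.5 FPKM at a sum of 220 to 37.3 FPKM at 827, with control 1 at the end of the line, and on the right CKOs spread from 14.5 to 266 over the range of Eef1a1 values.

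The other eEF1 genes include those of the complex that recharges eEF1A with GTP. Eef1b2, the nucleotide exchange subunit, had means of 12.3 ± 3.595 FPKM in controls and 14.4 ± 1.296 FPKM in CKOs (SD, n = 6 each), with limma adjusted P = 0.339 over all mice and 0.0342 without control 1. Eef1d, Eef1g and Eef1e1 had log2 fold changes between 0.03 and 0.12 and passed at no threshold. Of the 6 eEF1 genes, 1 passed an unadjusted P.

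Eef2 encodes the factor that moves the ribosome by 1 codon. It was the next most abundant member, and Eef1a2 and Eef2 together held 25.97% of the family's summed FPKM. Eef2 ran from 70.2 through a median of 86.0 to 90.3 FPKM in controls and from 83.7 through 101 to 117 FPKM in CKOs. Of the 6 CKOs, 5 lay above all controls, CKO 2 being the exception. The log2 fold change was 0.30 (SE 0.104, limma adjusted P = 0.140) and 0.11 after scaling (adjusted P = 0.644). Eef2k, the kinase that inactivates eEF2, had a log2 fold change of -0.18 (adjusted P = 0.484), and -0.36 after scaling (unadjusted P = 0.0295, adjusted P = 0.286).

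eIF3 is the large scaffold that holds the small subunit and links it to the cap complex. Of its 14 tested genes, 6 were higher at an unadjusted P of 0.05, none was lower, and 13 had a positive log2 fold change with a median of 0.25. Of all tested genes 18.1% were higher and 77.9% were positive, with a median of 0.18. After scaling 1 passed and 10 were positive, with a median of 0.07, against 6.62%, 51.2% and 0.01 for all genes. Without control 1, 9 passed an unadjusted P and 4 the adjusted test, against 27.2% and 8.56% of all genes. With scaling as well 3 and 1 did, against 8.71% and 1.43% of all genes.

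Eif3l had the smallest P of the family. It ran from 6.14 through 6.96 to 11.7 FPKM in controls and from 9.69 through 10.4 to 11.9 FPKM in CKOs. The highest control was again control 1, and the other 5 reached 7.75 FPKM, below every CKO. Its log2 fold change was 0.52 (SE 0.141, limma adjusted P = 0.0669), 0.33 after scaling (adjusted P = 0.126) and 0.65 without control 1 (adjusted P = 0.00235). Without control 1 and with scaling it was 0.42 (adjusted P = 0.0105).

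Eif3l also went with the marker sums. With the fibroblast sum r was 0.759 (permutation P = 0.00024, adjusted 0.00048) and rho 0.909 (permutation P = 0.0001, adjusted 0.0002) over 12 mice. That r was 0.787 without control 1 and CKO 1, 0.972 within controls (exact permutation P = 0.00278) and 0.434 within CKOs (exact permutation P = 0.281). The relation therefore held within controls and did not pass the test within CKOs. With the slow fiber sum r was 0.661 over 12 mice (permutation P = 0.0072, adjusted 0.0096) and rho 0.804 (permutation P = 0.00236, adjusted 0.00315). It was 0.488 without the 2 farthest libraries, CKO 1 and CKO 6 (permutation P = 0.140), with rho 0.661 (permutation P = 0.0432, adjusted 0.0576). Within CKOs that r was 0.925 (exact permutation P = 0.00278, adjusted 0.0111) and within controls 0.365 (P = 0.486).

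Eif3d, whose product can itself bind the cap of some mRNAs, ran from 4.78 through 5.28 to 8.62 FPKM in controls and from 6.40 through 8.34 to 10.2 FPKM in CKOs. Control 1 was the highest control and the groups overlapped. Its log2 fold change was 0.45 (SE 0.162, limma adjusted P = 0.1503), and 0.26 after scaling (unadjusted P = 0.0514, adjusted P = 0.360). Eif3m, another subunit of the complex, ran from 2.66 through 3.62 to 5.26 FPKM in controls and from 4.17 through 4.97 to 5.97 FPKM in CKOs. Here too the overlap came from the upper controls. Its log2 fold change was 0.44 (SE 0.161, limma adjusted P = 0.155), and 0.25 after scaling (unadjusted P = 0.0709, adjusted P = 0.406). Of its 50-base stretches, 34.6% occur in other genes.

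Of the rest, Eif3c had a log2 fold change of 0.31, Eif3g of 0.29 and Eif3f of 0.29, with limma adjusted P between 0.207 and 0.236. After scaling they had 0.12, 0.11 and 0.10 (limma adjusted P between 0.714 and 0.758). For Eif3c 1 library mattered in the CKO group. CKO 2, at 14.8 FPKM, lay below every control, and without it the log2 fold change was 0.43 (adjusted P = 0.0303). Eif3a and Eif3b, on which the complex assembles, had log2 fold changes of 0.19 and 0.13 (adjusted P = 0.293 and 0.584). Eif3j1 and Eif3j2 are near copies, and 90.8% of the 50-base stretches of Eif3j2 occur in Eif3j1. Single libraries departed from the rest, with Eif3j2 at 0.163 FPKM in CKO 6 and 0.512 FPKM in control 4, and Eif3j1 at 1.66 FPKM in CKO 4 against 0.0931 to 0.162 FPKM elsewhere, so their split is uncertain.

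**Figure D3:**
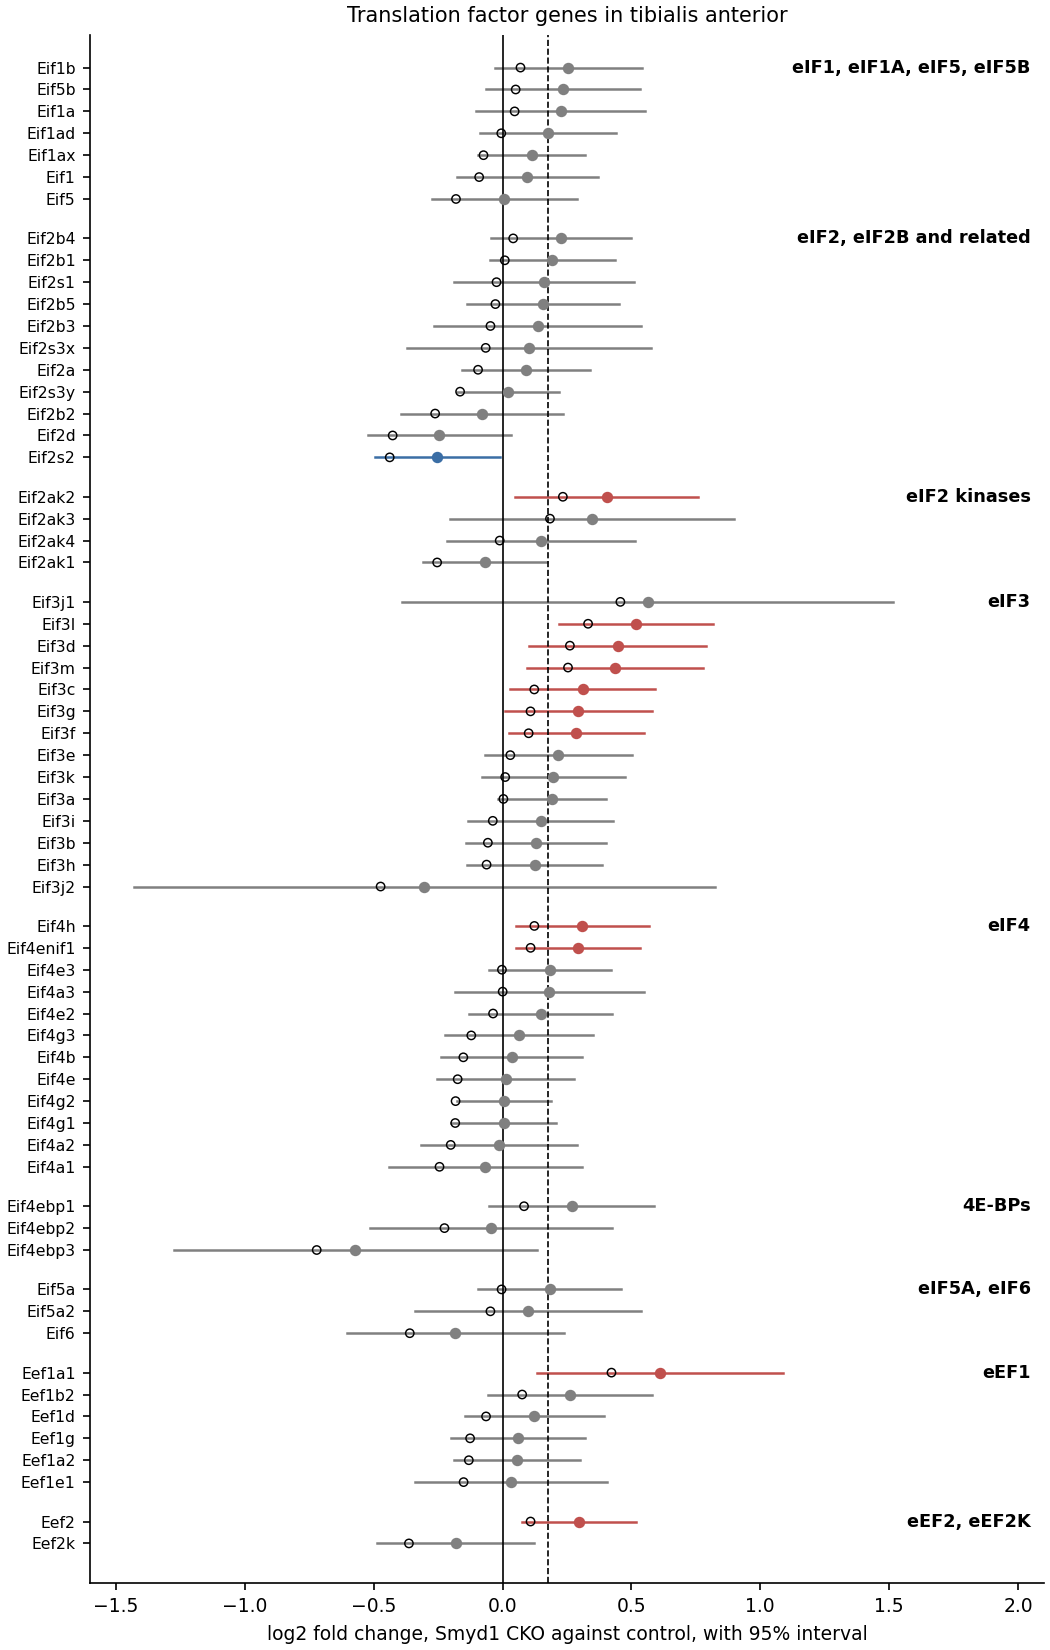
Log2 fold change of CKO against control for each of the 62 tested members, grouped by role, with filled points for FPKM as deposited, bars for 95% intervals and open circles for the values after median-ratio scaling. Red and blue mark members higher or lower at an unadjusted P of 0.05, and the dashed line is the median of all genes (0.18). Of the 11 red points 6 belong to eIF3, which holds 14 of the 62 members, and 18.1% of all genes were higher.

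Many mRNAs of the translation machinery begin with a C followed by a run of pyrimidines, a feature through which mTORC1 controls their translation. The annotated starts of some of the genes discussed so far, with and without such a run, are shown because they bear on that feature. The lines printed do not give its share, which follows them. Each line gives 30 bases around the RefSeq start in GRCm38.p6, read on the strand of the gene, with capitals for the longest run of at least 7 bases that starts with C, holds only C and T, and lies wholly between 10 bases before and 20 after the start on that strand. The printed bases begin upstream of that window, so the ctctcct near the left end of the Eef1a2 line, which starts outside it, was not counted. A second, shorter run in Eif3l is left in lower case. Eef1a1 is at chr9:78481710-78481739 and Eef1a2 at chr2:181157001-181157030 on the minus strand, Eif3l at chr15:79075208-79075237 and Eif3f at chr7:108934400-108934429 on the plus strand, and Eif3d at chr15:77970810-77970839 on the minus strand.
Eef1a1: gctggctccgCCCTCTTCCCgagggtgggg
Eef1a2: tctctcctggtctgcgttctcgctcactgg
Eif3l: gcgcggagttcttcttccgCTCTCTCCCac
Eif3f: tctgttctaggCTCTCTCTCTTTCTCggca
Eif3d: gtggtagggccatttacgacagcgctggtc
Among the members with an entry, 13 of 49 held such a run (26.5%), against 4205 of 27025 genes (15.6%). A run was found for Eef1a1, Eif3l, Eif3f and Eif4enif1 among the 12 members past an unadjusted P, and in no window of the other 8 (Eef2, Eif2ak2, Eif2s2, Eif3c, Eif3d, Eif3g, Eif3m and Eif4h). A run in the window need not lie at the first base of the mRNA, and that of Eef1a1 begins before the annotated start. An annotated start need not be the start used in muscle. A window without a run therefore does not show that the mRNA lacks the feature.

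eIF2 carries the initiator tRNA, and eIF2B reloads it with GTP. Of the 11 genes of this group 1 was lower and none higher at an unadjusted P. Eif2s2, the beta subunit of eIF2, ran from 7.05 through 7.99 to 8.83 FPKM in controls and from 4.93 through 6.98 to 7.64 FPKM in CKOs. The ranges overlapped, with CKO 2 the lowest and control 1 the highest value. The log2 fold change was -0.25 (SE 0.113, limma adjusted P = 0.230). After median-ratio scaling Eif2s2 fell by 0.44 on the log2 scale and was the member that passed the adjusted test (SE 0.0978, adjusted P = 0.0389). Without control 1 it was -0.22 as deposited (unadjusted P = 0.0747) and -0.45 with scaling (adjusted P = 0.0322).

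Eif2d, whose product can deliver tRNA without GTP and acts in ribosome recycling, had a log2 fold change of -0.24 (limma adjusted P = 0.304), -0.43 after scaling (unadjusted P = 0.0122, adjusted P = 0.196) and -0.54 with scaling and without control 1 (adjusted P = 0.0338). It is named because of the count without control 1. The 4 listed eIF2B genes other than Eif2b2, which are Eif2b1, Eif2b3, Eif2b4 and Eif2b5, had log2 fold changes between 0.14 and 0.23, and Eif2b2 had -0.08. None of these 5 eIF2B genes passed an unadjusted P over all 12 mice as deposited or with scaling. Eif2b4 did with sample weights (limma unadjusted P = 0.0238, adjusted P = 0.103). It also did without control 1 (log2 fold change 0.32, limma unadjusted P = 0.00833, adjusted P = 0.0677). The gamma subunit comes from an X and a Y copy, and Eif2s3y was the higher of the pair in every library, at 14.2 to 18.5 FPKM against 0.523 to 1.35 FPKM for Eif2s3x, of which 35.4% of the 50-base stretches occur in other genes. Their ratio did not differ detectably between groups (log2 difference -0.08, exact permutation P = 0.716).

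The eIF2 kinases stop initiation under stress. Eif2ak2, which encodes the kinase PKR that senses double-stranded RNA, ran from 0.694 through 0.765 to 1.13 FPKM in controls and from 0.905 through 1.17 to 1.48 FPKM in CKOs. Control 1 was again the highest control. The log2 fold change was 0.40 (SE 0.166, limma adjusted P = 0.194), and 0.23 after scaling (unadjusted P = 0.114, adjusted P = 0.495). Eif2ak3 (PERK, which responds to endoplasmic reticulum stress) and Eif2ak4 (GCN2, which senses amino acid shortage) had log2 fold changes of 0.35 and 0.15, and Eif2ak1 (HRI, the heme-regulated kinase), the most abundant at 7.48 FPKM on average, had -0.07. The adjusted P of these 3 lay between 0.457 and 0.756 over all mice as deposited. Eif2ak3 passed the adjusted test without control 1 and CKO 5 (log2 fold change 0.69, limma adjusted P = 0.0351). That fit was chosen after the values were seen. With sample weights Eif2ak3 had 0.58 (limma unadjusted P = 0.0173, adjusted P = 0.0865). After scaling it had 0.18 (adjusted P = 0.808), and without control 1 alone it did not pass an unadjusted P.

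**Figure D4:**
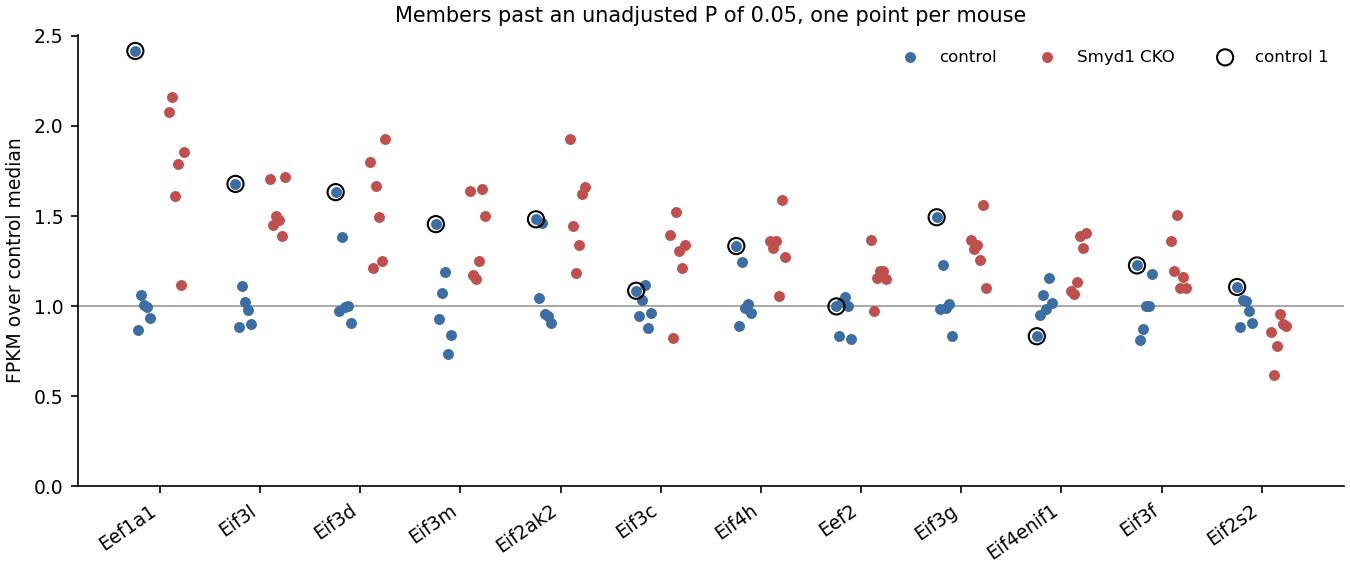
FPKM of each mouse divided by the control median for the 12 members past an unadjusted P of 0.05, with controls in blue, Smyd1 CKOs in red and control 1 ringed. Control 1 lies above the CKO values for Eef1a1 and among them for Eif3l, Eif3d and Eif3m, and no gene separates the 2 groups completely.

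The eIF4 genes form the cap complex: Eif4e binds the cap, Eif4g1 and its relatives are the scaffold, and Eif4a1 and Eif4a2 are helicases helped by Eif4b and Eif4h. Eif4e1b, an oocyte form of the cap-binding protein, was listed at 0 in all 12 libraries and was the member that did not pass the filter. Of the 12 tested, 2 were higher and none lower at an unadjusted P. Eif4h ran from 8.96 through 10.1 to 13.4 FPKM in controls and from 10.6 through 13.5 to 16.04 FPKM in CKOs, with control 1 the highest control. Its log2 fold change was 0.31 (SE 0.122, limma adjusted P = 0.179), and 0.12 after scaling (adjusted P = 0.603). Eif4enif1, the carrier that takes eIF4E into the nucleus and to processing bodies, ran from 3.05 through 3.66 to 4.23 FPKM in controls and from 3.92 through 4.50 to 5.15 FPKM in CKOs. Here control 1 was the lowest control. Its log2 fold change was 0.29 (SE 0.113, limma adjusted P = 0.172), and 0.11 after scaling (adjusted P = 0.781).

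The abundant members of the cap complex gave values close to 0. Eif4a2, at 49.6 FPKM on average, had a log2 fold change of -0.01, Eif4g2 (42.4 FPKM) and Eif4g1 (39.9 FPKM) had 0.01 and 0.00, and Eif4e had 0.01. The 95% intervals were from -0.32 to 0.29 for Eif4a2 and from -0.20 to 0.21 for Eif4g1. With scaling these 4 lay between -0.20 and -0.17. The ratio of Eif4a2 to Eif4a1 ran from 17.2 to 40.4 over the libraries, but 65.3% of the 50-base stretches of Eif4a1 occur in other genes, so that its level may be understated. None of the ratios Eif4a2 to Eif4a1, Eif4g3 to Eif4g1 or Eif4e2 to Eif4e passed the exact permutation test (P = 0.812, 0.632 and 0.177).

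The 4E-BPs hold eIF4E away from the scaffold until mTORC1 phosphorylates them. Eif4ebp1 had means of 6.22 ± 1.39 FPKM in controls and 7.45 ± 1.26 FPKM in CKOs (SD, n = 6 each, limma adjusted P = 0.330). Eif4ebp2 had 1.63 ± 0.559 and 1.498 ± 0.236 FPKM (SD, n = 6 each, limma adjusted P = 0.927), and the ratio of the pair did not pass the exact permutation test (P = 0.281). Eif4ebp3, at 0.163 to 1.02 FPKM, had a log2 fold change of -0.57 (adjusted P = 0.346).

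The factors that choose the start codon and join the subunits showed no call over all 12 mice as deposited or with scaling. Eif5, the activator of GTP hydrolysis by eIF2, was 23.8 FPKM on average in both groups. Eif1ax and Eif1, which keep the scanning ribosome open, had log2 fold changes of 0.11 and 0.10. Eif1b, a close relative of Eif1, had 5.03 to 5.37 FPKM in 5 controls, 8.07 FPKM in control 1 and 5.74 to 8.16 FPKM in CKOs. Its log2 fold change was 0.25 (limma adjusted P = 0.302) and 0.36 without control 1 (unadjusted P = 0.00465, adjusted P = 0.0504). It passed the adjusted test with sample weights (log2 fold change 0.37, limma adjusted P = 0.0408) and without control 1 and CKO 5 (0.40, adjusted P = 0.0304). The ratio of Eif1b to Eif1 did not pass over all mice (exact permutation P = 0.429), and without control 1 it had an exact permutation P of 0.0411 and an adjusted value of 0.162. Without control 1, the members in which all CKOs lay above the 5 remaining controls were Eef1a1, Eif1b and Eif3l, and 6.10% of all genes did so.

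Eif5a, whose product carries the hypusine modification and helps ribosomes through stalling sequences, had means of 25.3 ± 4.72 FPKM in controls and 28.7 ± 4.53 FPKM in CKOs (SD, n = 6 each, limma adjusted P = 0.436). The highest CKO value, 37.3 FPKM, was CKO 5. Eif5a2 was 0.193 to 0.556 FPKM over all mice, and Eif6, which keeps the large subunit apart, had a log2 fold change of -0.18 (adjusted P = 0.624).

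Genes next to the family in the pathway were read from 6 lists. Of all tested genes, 18.1% were higher and 1.76% lower at an unadjusted P. In the mTORC1 list, which holds the kinase complex upstream of the 4E-BPs, 2 of 11 genes were higher at an unadjusted P and none was lower. Deptor, an inhibitor that binds mTOR, rose from 4.95 ± 0.656 to 8.17 ± 1.49 FPKM (SD, n = 6 each) with a log2 fold change of 0.71 (SE 0.131, limma adjusted P = 0.0121), and all CKO values lay above all controls. Rptor, the subunit that recruits mTORC1 substrates, had 0.46 (adjusted P = 0.104). After scaling Deptor had 0.52 and Rptor 0.28 (limma unadjusted P = 0.00105 and 0.0634). In the multi-synthetase list, whose complex charges tRNAs, 3 of 10 were higher: Lars had 0.44, Kars 0.40 and Eprs 0.28 (adjusted P between 0.0941 and 0.247). After scaling they had 0.25, 0.21 and 0.09 (limma unadjusted P = 0.0171, 0.0436 and 0.383).

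In a list of enzymes that modify translation factors, with related methyltransferases, 2 of 15 tested genes were higher and 1 lower at an unadjusted P. Mettl10, which encodes a methyltransferase of eEF1A, had a log2 fold change of 0.61 (SE 0.185, limma adjusted P = 0.0965) and did not overlap between groups. Dhps, which starts the hypusine modification of eIF5A, had 0.36 (adjusted P = 0.242). After scaling Mettl10 had 0.43 and Dhps 0.19 (limma unadjusted P = 0.019 and 0.240). Mettl21e, one of the related methyltransferases, went the other way, at 6.91 ± 2.21 FPKM in controls and 3.67 ± 2.11 FPKM in CKOs (SD, n = 6 each, log2 fold change -1.001, limma adjusted P = 0.0987). It had -1.18 after scaling (limma unadjusted P = 0.00144). Of 12 poly(A)-binding genes and partners 1 was higher, Gigyf2 with 0.27 (adjusted P = 0.215), and 0.08 after scaling (limma unadjusted P = 0.472). None of 8 termination and recycling genes and none of 9 mitochondrial translation factors passed over all 12 mice. After median-ratio scaling 4 and 3 of them were lower at an unadjusted P, against 7.44% of all genes. In the list of factor-modifying enzymes and related methyltransferases 1 was then higher, against 6.62% of all genes. In that list 4 were then lower: Mettl21c, Mettl21e, Mettl22 and Dph3. The median log2 fold change of the 6 lists lay between -0.02 and 0.17, against 0.18 for all genes. After scaling it lay between -0.21 and -0.002, against 0.01.

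Further marker lists moved with control 1 and with the groups. The macrophage sum was 33.3 FPKM in control 1, 8.04 to 15.6 in the other controls and 12.1 to 19.6 in CKOs. The adipocyte sum was 307 FPKM in control 1 against 94.5 to 171 and 95.9 to 211 FPKM. Fabp4 held most of it, with means of 155 FPKM in controls and 129 FPKM in CKOs (log2 fold change -0.20, limma adjusted P = 0.686). The other 3 of its 4 tested genes were higher in CKOs at an unadjusted P, against 18.1% of all genes. Retn passed the adjusted test (limma adjusted P = 0.0322), but its means were 0.051 and 0.456 FPKM and it was at 0 in 4 libraries. The erythroid sum was 49.4 against 12.8 to 34.0 and 18.6 to 39.2 FPKM. The satellite cell sum was 10.01 to 18.6 FPKM in controls and 16.3 to 28.4 FPKM in CKOs. Of its 6 genes 4 passed an unadjusted P, all higher, against 18.1% of all genes. Itga7 had means of 4.58 FPKM in controls and 9.38 FPKM in CKOs, and Cdh15 had 0.94 and 1.04 FPKM. Endothelial sums overlapped, at 31.4 to 47.5 and 31.7 to 54.8 FPKM. Schwann cell sums were 11.4 to 15.9 and 13.5 to 20.9 FPKM, with 3 of 6 Schwann cell genes higher at an unadjusted P, against 18.1% of all genes. After scaling 3 satellite cell and 0 Schwann cell genes were higher at an unadjusted P, against 6.62% of all genes. The part of these lists in the values of the family was not tested.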

How the data were processed

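RNA from the tibialis anterior of 12 mice was measured. Per the study's methods, the authors depleted ribosomal RNA from total RNA, trimmed adapters, aligned with bowtie2 and TopHat2, kept only uniquely mapping reads with few mismatches, and made the deposited FPKM with Cufflinks. TopHat2 2.0.10, Cufflinks 2.1.1 and the build mm9 come from the submitters' processing notes. The authors' own tests used DESeq on counts, which were not used here. Depth in reads is unknown. Relative depth, read from the steps between low FPKM, ran from 0.983 (CKO 5) to 1.76 (CKO 1) times that of control 1.

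Of 23950 rows, 27 were dropped because a spreadsheet date stood in place of the symbol. log2(FPKM + 0.1) was fitted with limma 3.58.1 in R 4.3.3 (trend, no covariate) on genes with at least 0.1 FPKM in 6 or more libraries, tested on simulated data, and adjusted by Benjamini-Hochberg. Ratios of 8 gene pairs were compared by exact permutation over 924 assignments. Members named are Eef1a1, Eef1a2, those past an unadjusted P of 0.05, the most abundant and lowest-P member of each role and the 8 pairs. Others are named where a count or range turns on them. The members and lists were chosen with earlier results of these data known. The relations with marker sums and the fits without control 1 with scaling, or without CKO 5 as well, were chosen after seeing the data. Each mouse was left out in turn, but control 1 was singled out after its values were seen. Sequences were read from GENCODE release 21 (GRCm38) and RefSeq (GRCm38.p6), not mm9, so no mm9 positions are given. The labels state no pairing, and none was fitted in the main test. Deviations of same-numbered libraries had a mean correlation of 0.04, within the range of other pairs (-0.16 to 0.186). That cannot tell whether same-numbered mice were related or handled together.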

Additional observations from a re-analysis of the deposited data

Results flagged for a closer look

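Among 74 groups of 6 mice examined (each named member and each log2 ratio of a pair, per genotype), 8 held a library whose gap to its nearest neighbour was over 0.625 of the group's range. Chance gives such a gap in about 1 in 20 groups. Of the 8, 5 were control 1. Control 1 had 37.3 FPKM of Eef1a1 against 13.5 to 16.4 in the other controls, 11.7 FPKM of Eif3l against 6.14 to 7.75, and 8.07 FPKM of Eif1b against 5.03 to 5.37. Its log2 ratio of Eef1a2 to Eef1a1 was 1.33 against 2.87 to 3.20, and its log2 ratio of Eif1b to Eif1 was -0.16 against -1.37 to -0.92.

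The other 3 were CKOs. CKO 5 had 37.3 FPKM of Eif5a against 23.8 to 28.7 in the other CKOs, and a log2 ratio of Eif4g3 to Eif4g1 of -2.33 against -1.86 to -1.69. CKO 3 had 1.95 FPKM of Eif4ebp2 against 1.31 to 1.54.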

How the results depend on the processing

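Counts are of members higher or lower in CKOs, at an adjusted and then an unadjusted P of 0.05. With another pseudocount, a filter at 1 FPKM or no filter the 4 counts kept their values of 0, 0, 11 and 1. In these fits 14.2% to 21.3% of all genes were higher at an unadjusted P. Median-ratio scaling gave 0 higher and 1 lower, then 2 and 6 (6.62% and 7.44% of all genes). Quantile normalization gave 4 higher and 5 lower at an unadjusted P (6.38% and 6.59% of all genes). No trend gave 9 and 0 (18.1% and 1.69% of all genes). Sample weights gave 8 higher at an adjusted P (1400 of 12695 genes), then 20 higher (29.2% of all genes) and 2 lower. Leaving out each mouse in turn gave 0 to 6 higher at an adjusted P, then 7 to 22 higher and 0 to 2 lower. Both upper counts of higher members came without control 1, where 8.56% and 27.2% of all genes were higher. The 1 other member called at an adjusted P came without CKO 2 (Eif3c, with 2.4% of all genes higher). Without control 1 and CKO 5, 7 were higher at an adjusted P and 19 at an unadjusted P (10% and 27.4% of all genes). Without control 1 and with median-ratio scaling, 2 were higher and 2 lower (1.43% and 1.45% of all genes), then 4 and 9 (8.71% and 9.09%). The replicate block gave 12 higher (19.2% of all genes) and 1 lower (1.97%) at an unadjusted P, and 0 at an adjusted P. In it Eef1a1 had a limma adjusted P of 0.0941 and Eif3l one of 0.0509. Same-numbered libraries are known to share only a number. The mean correlation of their deviations was 0.04, from -0.0861 to 0.164, against -0.00879 for other pairs. Whether the number marks a pairing cannot be told from this.

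Of the named members, 11 had the opposite sign after median-ratio scaling: Eef1a2 -0.13, Eif1 -0.091, Eif2s3x -0.065, Eif2s3y -0.16, Eif4e -0.17, Eif4e2 -0.037, Eif4g1 -0.18, Eif4g3 -0.12, Eif5 -0.18, Eif5a -0.0038 and Eif5a2 -0.047. None had passed a test. With quantile normalization it was Eif1 -0.036, Eif2s3x -0.12, Eif2s3y -0.11, Eif4e -0.12, Eif4e2 -0.0085, Eif4g1 -0.078, Eif4g3 -0.074, Eif5 -0.094 and Eif5a2 -0.12, and with sample weights Eif4a1 0.037, Eif4a2 0.014 and Eif4g1 -0.0084. Over the fits that leave out 1 mouse, signs turned within -0.013 to 0.11 for Eef1a2, -0.15 to 0.040 for Eif4a1, -0.088 to 0.080 for Eif4a2, -0.035 to 0.059 for Eif4g1, -0.020 to 0.14 for Eif4g3, -0.045 to 0.096 for Eif4e, -0.24 to 0.059 for Eif4ebp2, -0.061 to 0.068 for Eif5, -0.012 to 0.20 for Eif2s3x, -0.011 to 0.071 for Eif2s3y and -0.042 to 0.19 for Eif5a2. The log2 ratio of Eef1a2 to Eef1a1 kept its sign, from -0.84 without control 1 to -0.44. Those of Eif4a2 to Eif4a1 (-0.092 to 0.13), Eif4g3 to Eif4g1 (-0.0025 to 0.16), Eif5a2 to Eif5a (-0.25 to 0.031) and Eif2s3y to Eif2s3x (-0.18 to 0.030) did not. The causes of these differences were not tested.

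FPKM without counts leave the depth behind each value unknown, so low members such as Eif4ebp3, Eif5a2 and Eif3j1 have no counting interval, and a miss of the threshold does not show equal levels.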
